A study of Saccharomyces cerevisiae with 8 samples.

Results

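The 30 genes described here carry out sulfate assimilation, the synthesis of methionine, cysteine and S-adenosylmethionine, the uptake of sulfur compounds, and the control of this pathway in Saccharomyces cerevisiae. They were matched by gene symbol or systematic name (MET5 is also known as ECM17), and all 30 were found among the 6256 genes on the array. All 30 were also among the 6126 genes that passed the signal filter, and each had a value on all 8 arrays. The choice of genes used no measured value of these arrays, but earlier results of the same data were known when it was made.

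The samples compared with wild type were Cy5-labelled RNAs of 7 aneuploid strains, namely A2 and A3, A9 and A10, which lay in row 1 of the slide, and A13, A14 and A15, which lay in row 2. The wild-type RNA WT1, also in row 2, was an eighth Cy5 sample. Each of the 8 samples was hybridised on its own 2-colour Agilent array against 1 wild-type RNA, WT2, labelled with Cy3, and cells were in mid-log growth per the labels. The labels give no genotype beyond the strain name, no ploidy, no mating type, no medium and no list of extra chromosomes. Each strain was measured on 1 array, so a value for a strain has no replicate, and whether the samples were separate cultures is not stated. All values below are log2 ratios over WT2 unless stated otherwise, and a log2 ratio of 1 or -1 is a 2-fold difference.

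Yeast takes up sulfate through permeases, activates it with ATP in successive steps and reduces it to sulfite and then to sulfide. Sulfide is joined to O-acetylhomoserine to make homocysteine, which is methylated to methionine or passed along the transsulfuration route to cysteine. Methionine is converted to S-adenosylmethionine, the methyl donor of the cell. The activator Met4 drives transcription of most of these genes and reaches DNA through Cbf1, Met31 and Met32. When sulfur amino acids are plentiful, the ubiquitin ligase SCF-Met30 inactivates Met4.

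Median spot signals lay between 539 and 1532 in the Cy5 channel and between 364 and 614 in the Cy3 channel. The SD of the log2 ratios over all genes tested lay between 0.271 and 0.708 on the strain arrays, highest on A10, and at 0.156 on the WT1 array. Strains A9 and A10 stood furthest from WT2 in genes of mating type, but not in all the same genes. STE2, the receptor for alpha factor made by a cells, was at -6.18 in A9 and -6.38 in A10, against 0.12 in WT1. STE2 was also at -1.84 in A15, -1.05 in A2 and -1.04 in A3, but at -0.32 in A13 and 0.08 in A14. MF(ALPHA)1, which encodes alpha factor, was at 7.15 in A9 but 0.48 in A10. HO, the mating-type switching endonuclease, was at -5.00 in A10, -1.42 in A9 and -1.64 in A15. The haploid marker genes FAR1, STE18 and GPA1 lay between -4.54 and -3.50 in A10, and between -1.08 and 0.48 in the other strains. The part of mating type in the values of the sulfur genes was not tested. The limma results were also computed without A9 and A10. Of the members, 29 of 30 were well above background in both channels on all arrays, none of their spots was saturated, and the 2 spots of a member differed by a median of 0.05. SUL1 was the exception, being not well above background on A9 in Cy3, on A14 in both channels and on WT1 in Cy5. After flagged spots were left out, SAM1 on A2 and A3, SAM2 on A3 and A13, and MET31 on A3 rested on 1 spot.

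Each strain had at least 1 chromosome whose genes were shifted together. A chromosome is called raised here when the median log2 ratio of its genes was at least 0.3. This held for 18 pairs of strain and chromosome, namely chromosome I in A3 and A13, II in A2, A3, A9 and A15, III in A10, IX in A14, X in A15, XI in A10 and A15, XII in A2, A3 and A10, XIII in A9, XV in A10, and XVI in A9 and A14. The medians of these 18 lay between 0.32 and 0.79. They are RNA measurements, and DNA copy number was not analysed here. The 30 members lie on 14 of the 16 chromosomes, and 19 of them lie on a chromosome that was raised in at least 1 strain. A value relative to the chromosome is the gene's log2 ratio minus the median of its chromosome on the same array.

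The sulfur genes stayed close to WT2 as a group on every array, while single members stood far from it in single strains. Medians over the 30 members were -0.01 in A2, 0.13 in A3, -0.07 in A9, 0.06 in A10, 0.05 in A13, -0.15 in A14 and 0.19 in A15, against 0.01 in WT1. Medians over all genes tested lay between -0.02 and 0.02 on the same arrays. In 12 of the 210 pairs of member and strain the ratio was past 2-fold, 8 higher and 4 lower, and these 12 pairs were 12 different genes. On WT1 the members lay between -0.30 for MET22 and 0.40 for MET5, so none was past 2-fold there.

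**Figure D1:**
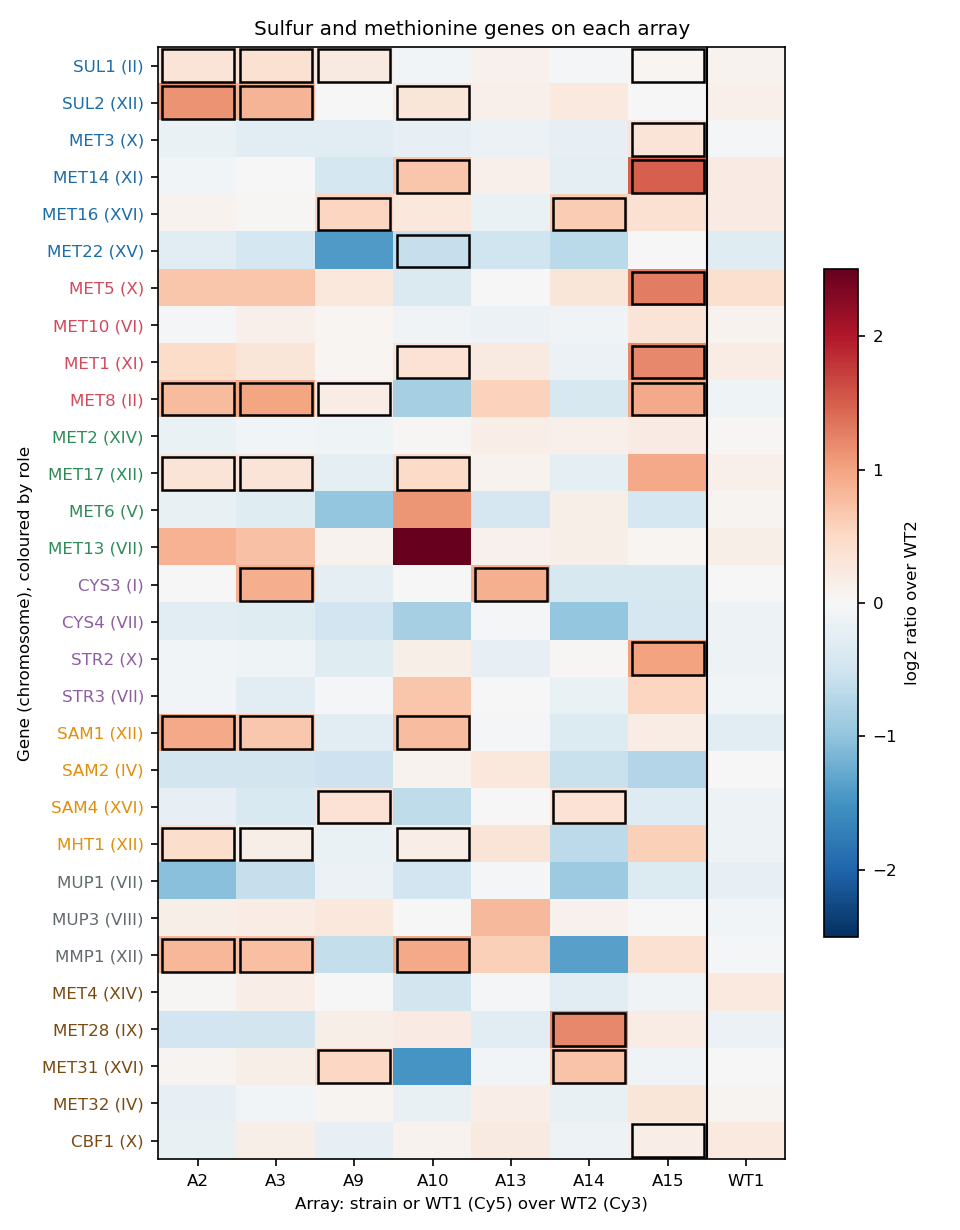
Log2 ratios over WT2 of the 30 sulfur and methionine genes (rows, grouped by role) on the 8 arrays (columns), with the colour scale in log2 units and black boxes around genes whose chromosome was raised in that strain. The darkest cell of higher ratio is MET13 in A10 at 2.49, and most of the boxed cells are of higher ratio.

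Counts past 2-fold were small and are set beside the share of all genes past the same fold on the same array. In A2, 1 member was higher (SUL2) and 1 lower (MUP1), where 2.68% of all genes were higher and 1.1% lower. In A3 no member was past 2-fold, where 2.08% of all genes were higher and 0.686% lower. In A9 no member was higher and 1 was lower (MET22), where 4.23% and 1.24% of all genes were. In A10, 2 members were higher (MET13 and MET6) and 1 was lower (MET31), where 8.41% and 3.46% of all genes were. In A13 no member was past 2-fold, where 0.426% of all genes were higher and 0.0984% lower. In A14, 1 member was higher (MET28) and 1 lower (MMP1), where 2.98% and 0.327% of all genes were. In A15, 4 members were higher (MET14, MET5, MET1 and STR2) and none was lower, where 2.29% and 1.27% of all genes were. On WT1, with 0% of all genes 2-fold higher and 0.0163% lower, no member was past 2-fold. In A15 the share of members past 2-fold higher was 13.3%, above the 2.29% of all genes, and in the other strains single genes make up the counts.

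Sulfate uptake and activation are carried out by 6 members. SUL2, a high-affinity sulfate permease gene on chromosome XII, was at 1.13 in A2 and 0.86 in A3, -0.01 in A9, 0.30 in A10, 0.13 in A13, 0.24 in A14 and -0.02 in A15, against 0.13 in WT1. It stood highest in A2 and A3, at 0.54 and 0.36 relative to chromosome XII, which was raised in A2, A3 and A10. In A10 and the other strains it lay near WT1. SUL1, the second high-affinity sulfate permease gene, lay between -0.07 in A10 and 0.37 in A3, against 0.09 in WT1, and its signals on A9, A14 and WT1 were not well above background, so its difference from WT1 is not read further. Its values depended on the processing. With processed signals SUL1 was at 1.45 in A2, 1.56 in A3 and 1.16 in A9, against 0.04 in WT1. With median centring it was at 0.21, 0.19 and -0.65 in these strains.

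MET3, which encodes ATP sulfurylase, the first activating enzyme, was at -0.17 in A2 and -0.27 in A3, -0.27 in A9, -0.20 in A10, -0.15 in A13, -0.20 in A14 and 0.33 in A15, against -0.02 in WT1. Only A15 was above WT1, and there its chromosome X was raised and MET3 lay at -0.13 relative to it. MET14, the APS kinase gene on chromosome XI, was at -0.08 in A2 and -0.02 in A3, -0.45 in A9, 0.70 in A10, 0.13 in A13, -0.22 in A14 and 1.49 in A15, against 0.21 in WT1. The highest values fell in A15 and A10, the strains with raised chromosome XI, at 0.85 relative to that chromosome in A15. MET16, the PAPS reductase gene on chromosome XVI, lay between -0.17 in A13 and 0.63 in A14, against 0.21 in WT1, and its highest values, in A14 and A9, were in the strains with raised chromosome XVI.

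MET22 encodes the phosphatase that removes adenosine bisphosphate, a by-product of PAPS reduction. It was at -0.27 in A2 and -0.44 in A3, -1.41 in A9, -0.58 in A10, -0.51 in A13, -0.68 in A14 and 0.01 in A15, against -0.30 in WT1. A9 stood lowest, A15 and A2 lay above WT1, and the other strains lay below it. Its chromosome XV was raised in A10, and MET22 was at -1.16 relative to it there, so that A10 and A9, at -1.37, were both past 2-fold lower on this scale.

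Sulfite is reduced to sulfide by a reductase of alpha and beta subunits with a siroheme cofactor. All 4 genes of this step were above WT2 in A3, A9 and A15, and 3 of 4 in A2 and in WT1. Their median was 1.07 in A15, 0.58 in A2, 0.50 in A3, 0.13 in A9, 0.11 in A13, -0.12 in A14 and -0.23 in A10, against 0.14 in WT1. Relative to the chromosomes it was 0.51 in A15, 0.33 in A2 and 0.30 in A3. MET5, the beta subunit gene on chromosome X, was at 0.70 in A2 and 0.69 in A3, 0.27 in A9, -0.37 in A10, -0.00 in A13, 0.30 in A14 and 1.28 in A15, against 0.40 in WT1. A15, the strain with raised chromosome X, was highest at 0.82 relative to it, and A2 and A3 were also above WT1. MET10, the alpha subunit gene on chromosome VI, spread less, between -0.15 in A13 and 0.32 in A15, against 0.09 in WT1.

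MET1 and MET8 make siroheme. MET1, on chromosome XI, was at 0.47 in A2 and 0.31 in A3, 0.05 in A9, 0.37 in A10, 0.22 in A13, -0.14 in A14 and 1.19 in A15, against 0.19 in WT1. A15 was highest, at 0.55 relative to chromosome XI, and A14 was the only strain below 0. MET8, on chromosome II, was at 0.80 in A2 and 0.99 in A3, 0.19 in A9, -0.84 in A10, 0.57 in A13, -0.41 in A14 and 0.96 in A15, against -0.11 in WT1. Chromosome II was raised in A2, A3, A9 and A15, and the values in A10 and A14 were below WT1. The 2 spots of MET8 differed by 0.385 on A15, the largest difference between the spots of any member.

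Sulfide is built into methionine through MET2, MET17, MET6 and MET13. MET13, which encodes the methylenetetrahydrofolate reductase that supplies the methyl group, was at 0.87 in A2 and 0.74 in A3, 0.09 in A9, 2.49 in A10, 0.10 in A13, 0.16 in A14 and 0.06 in A15, against 0.15 in WT1. It was above 0 in all 7 strains, though in 5 with median centring in place of loess, and A10 held the highest log2 ratio of any member in any strain. Chromosome VII was raised in no strain, and MET13 was at 2.66 relative to it in A10. MET6, the methionine synthase gene on chromosome V, was at -0.19 in A2 and -0.30 in A3, -0.97 in A9, 1.1 in A10, -0.42 in A13, 0.16 in A14 and -0.44 in A15, against 0.07 in WT1. Here too A10 was the highest, at 1.24 relative to chromosome V, while A9 was the lowest and nearly 2-fold below WT2.

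MET17 encodes O-acetylhomoserine sulfhydrylase, which joins sulfide to O-acetylhomoserine. Its ratio was 0.31 in A2 and 0.32 in A3, -0.24 in A9, 0.47 in A10, 0.09 in A13, -0.25 in A14 and 0.94 in A15, against 0.13 in WT1. A15 was highest without a raised chromosome XII, at 0.84 relative to it, and A9 and A14 were below 0. MET2, which encodes homoserine O-acetyltransferase, had the smallest spread of the members, between -0.17 in A2 and 0.21 in A15, against 0.02 in WT1 (SD over strains 0.149, n = 7).

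Transsulfuration runs in both directions between homocysteine and cysteine. CYS3, the cystathionine gamma-lyase gene on chromosome I, was at 0.00 in A2 and 0.92 in A3, -0.22 in A9, 0.00 in A10, 0.89 in A13, -0.40 in A14 and -0.41 in A15, against 0.00 in WT1. The strains with raised chromosome I, A3 and A13, stood apart from the other 5, and relative to that chromosome CYS3 was at 0.25 in A3 and 0.29 in A13. CYS4, the cystathionine beta-synthase gene on chromosome VII, was at -0.27 in A2 and -0.31 in A3, -0.47 in A9, -0.83 in A10, -0.03 in A13, -0.96 in A14 and -0.43 in A15, against -0.13 in WT1. It was below 0 in all 7 strains and below WT1 in all but A13, which lay above 0 with median centring and relative to the chromosome.

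STR2, the cystathionine gamma-synthase gene on chromosome X, was at 1.0 in A15 and between -0.29 and 0.15 in the other 6 strains, against -0.12 in WT1. Relative to the raised chromosome X it was at 0.54 in A15. STR3, the cystathionine beta-lyase gene on chromosome VII, was highest in A10 at 0.69 and in A15 at 0.54, and lay between -0.28 and -0.01 in the other strains, against -0.07 in WT1.

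S-adenosylmethionine is made by the products of SAM1 and SAM2, which are similar copies that an array probe may not keep apart. SAM1, on chromosome XII, was at 0.95 in A2 and 0.68 in A3, -0.27 in A9, 0.78 in A10, -0.02 in A13, -0.35 in A14 and 0.18 in A15, against -0.27 in WT1. The highest values were in A2, A10 and A3, the strains with raised chromosome XII, and those in A2 and A3 rested on 1 spot each. SAM2, on chromosome IV, was at -0.46 in A2 and -0.45 in A3, -0.51 in A9, 0.09 in A10, 0.26 in A13, -0.57 in A14 and -0.74 in A15, against 0.02 in WT1. SAM2 was below WT1 in 5 strains and above it in A10 and A13, and no strain had a raised chromosome IV.

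SAM4 and MHT1 encode homocysteine methyltransferases that use S-adenosylmethionine and S-methylmethionine as methyl donors, and are also related copies. SAM4, on chromosome XVI, lay between -0.64 in A10 and 0.37 in A9 and A14, against -0.13 in WT1. The 2 highest strains were those with raised chromosome XVI. MHT1, on chromosome XII, lay between -0.65 in A14 and 0.59 in A15, against -0.12 in WT1.

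Of the transporters, MMP1, the S-methylmethionine permease gene next to MHT1 on chromosome XII, was at 0.83 in A2 and 0.76 in A3, -0.59 in A9, 0.95 in A10, 0.60 in A13, -1.37 in A14 and 0.38 in A15, against -0.03 in WT1. It was above WT1 in 5 strains and below it in A9 and A14, and its neighbour MHT1 was lowest in the same 2 strains. MUP1, the high-affinity methionine permease gene on chromosome VII, was at -1.05 in A2 and -0.57 in A3, -0.14 in A9, -0.48 in A10, -0.03 in A13, -0.90 in A14 and -0.33 in A15, against -0.21 in WT1. It was below 0 in all 7 strains, but A9 and A13 lay above WT1, and with median centring also above 0. MUP3, the low-affinity methionine permease gene on chromosome VIII, was at 0.82 in A13 and between -0.01 and 0.26 in the other 6 strains, against -0.08 in WT1, and was the member above WT1 in all 7 strains.

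Of the 5 regulators, MET4, CBF1 and MET32 varied little between strains, while MET31 (SD 0.703) and MET28 (SD 0.580) were among the wider members (n = 7 strains). MET4, the activator of the pathway, was at 0.03 in A2 and 0.17 in A3, -0.00 in A9, -0.47 in A10, -0.05 in A13, -0.29 in A14 and -0.09 in A15, against 0.25 in WT1. All 7 strains were below WT1, with A10 and A14 lowest. CBF1, which encodes a DNA-binding partner of Met4, lay between -0.20 in A2 and A9 and 0.22 in A13, against 0.25 in WT1, and was likewise below WT1 in all 7 strains, though in 6 of 7 without background correction and relative to the chromosome. Among all genes with a value on every array, 6.85% were above WT1 in all 7 strains and 7.29% below, so the 1 member above (MUP3) and the 2 below are near these shares.

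MET28, which encodes a leucine zipper cofactor of Met4 and lies on chromosome IX, was at -0.48 in A2 and -0.45 in A3, 0.15 in A9, 0.20 in A10, -0.27 in A13, 1.2 in A14 and 0.19 in A15, against -0.15 in WT1. Chromosome IX was raised in A14, where MET28 was at 0.41 relative to it. MET31, a zinc-finger factor gene on chromosome XVI, was at 0.07 in A2 and 0.15 in A3, 0.53 in A9, -1.47 in A10, -0.08 in A13, 0.71 in A14 and -0.08 in A15, against -0.01 in WT1. It was highest in the 2 strains with raised chromosome XVI and lowest in A10, at -1.32 relative to the chromosome. MET32, which encodes the related zinc-finger factor, stayed between -0.20 in A2 and 0.31 in A15, against 0.07 in WT1.

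In A15, 20 of the 30 members were above WT2, beside 3009 of 6124 genes. On raised chromosomes lay 8 of the 30 members, beside 1131 of the 6124 genes. The 4 members past 2-fold act at different steps: MET14 in activation, MET5 and MET1 in sulfite reduction and STR2 in transsulfuration. All 4 lie on chromosome X or XI. Of the 8 members on chromosomes raised in A15, 4 were past 2-fold higher, with a median of 0.98, or 0.50 relative to the chromosomes, beside 9.99% of all genes on those chromosomes. MET3, CBF1 and SUL1, also on raised chromosomes in A15, were at -0.13, -0.29 and -0.44 relative to them. Relative to the chromosomes no member was past 2-fold in A15, and MET14, MET17 and MET5 came nearest.

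In A10 the members past 2-fold were MET13 and MET6, which act at consecutive steps of methionine synthesis, and the factor gene MET31. This was 6.67% of the members higher and 3.33% lower, not above the 8.41% and 3.46% of all genes. None of the 3 genes lies on a chromosome raised in A10. The 4 genes of methionine synthesis had a median of 0.78 in A10, against 0.10 in WT1. Of these, MET2 was at 0.02 in A10 and turned to -0.33 with median centring, and MET17, on the raised chromosome XII, was at 0.15 relative to it. Of the 6 other listed genes of the folate and methyl cycle, 3 were above and 3 below WT2 in A10. The 3 below lay between -0.67 and -0.02. Those above were MET7 at 1.07, SAH1 at 1.35 and SHM2 at 1.25, against 0.25, 0.29 and -0.07 in WT1. Of all 37 other listed genes, 10.8% were past 2-fold higher in A10, beside 8.41% of all genes. Chromosomes XV and XII, which hold MET7 and SHM2, were raised in A10, and relative to the chromosome MET7 was at 0.49, SAH1 at 1.48 and SHM2 at 0.93. A10 also had the widest spread over all genes and the low HO and STE2 values given above, whose part in these values was not tested.

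**Figure D2:**
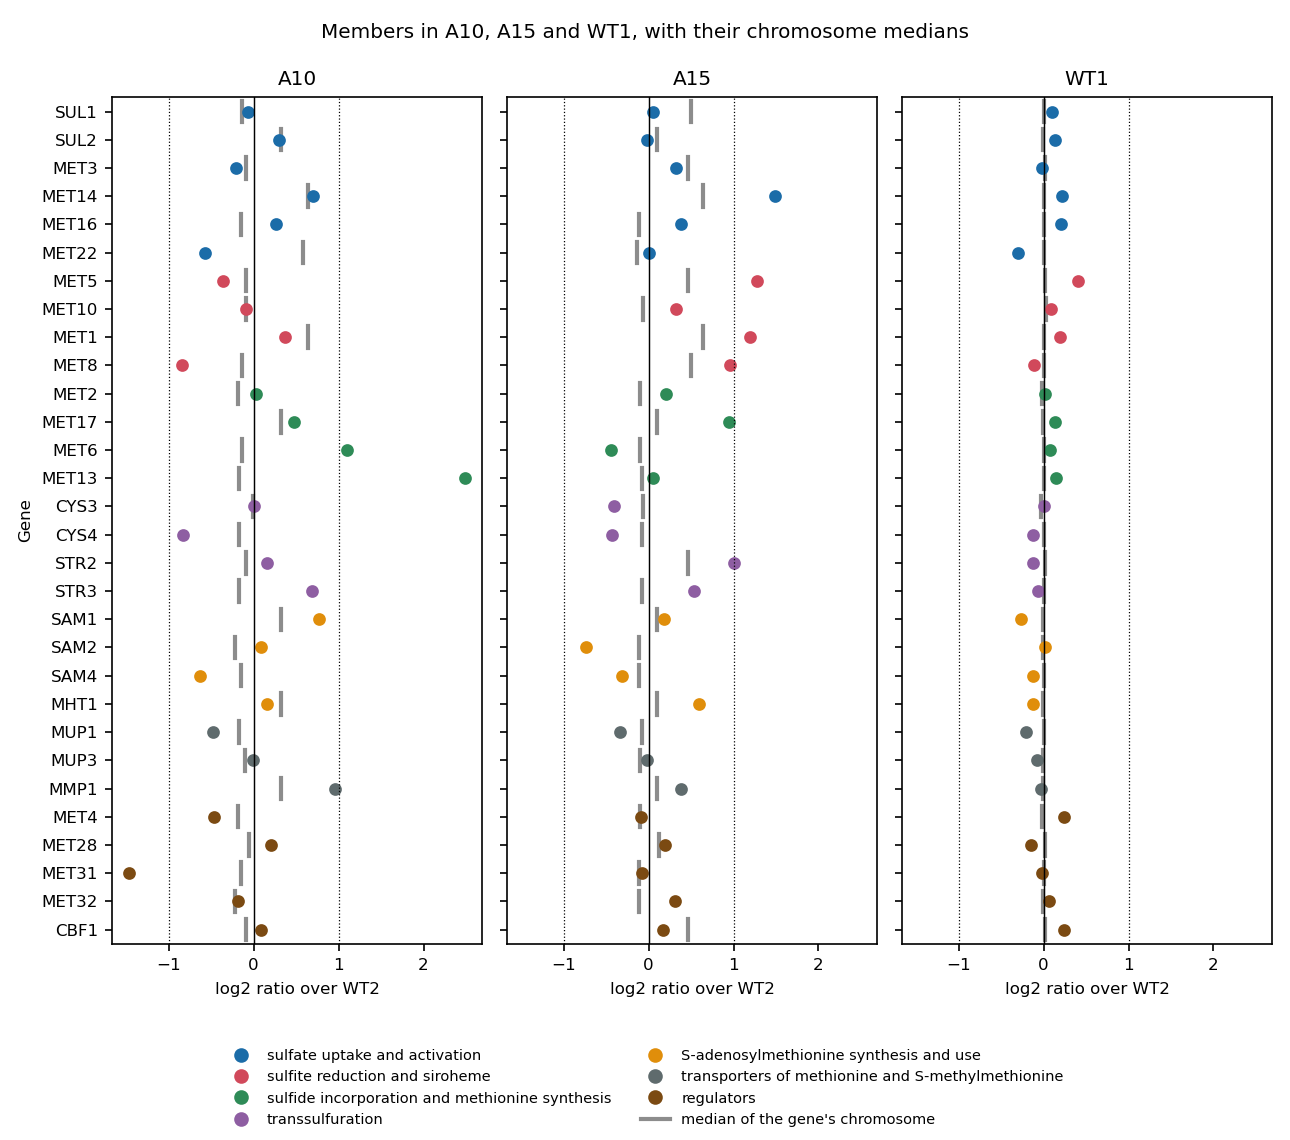
Log2 ratio over WT2 (horizontal axis) of each member in A10, A15 and WT1, ordered by role, with tick marks at the median of the gene's chromosome on that array. MET13 in A10 at 2.49 lies far right of its chromosome, MET14, MET5, MET1 and STR2 in A15 lie at or above 1.0, and the WT1 points stay between -0.30 and 0.40.

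Members on raised chromosomes were nearly all above WT2. Of the 210 pairs of member and strain, 41 lay on a raised chromosome, from 19 members, with a median ratio of 0.63, and 40 of the 41 were above 0. The exception was MET22 in A10, at -0.58 on a chromosome with a median of 0.58. The other 169 pairs had a median of -0.07, and 68 of them (40.2%) were above 0, beside 41.7% of such pairs over all genes. Over all genes, those on raised chromosomes had a median of 0.60 and 92.2% of their pairs were above 0, beside 97.6% for the members. Within raised chromosomes the members split evenly, 20 pairs above and 21 below the chromosome median.

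Of the 8 pairs past 2-fold higher, 6 lay on raised chromosomes, and the other 2 were MET13 and MET6 in A10. The 6 were 1 of 7 members on raised chromosomes in A2, 1 of 4 in A14 and 4 of 8 in A15. Of all genes on those chromosomes, 15.8% were past 2-fold higher in A2, 22.2% in A14 and 9.99% in A15. In A3, A9, A10 and A13 no member on a raised chromosome was, beside 11.4%, 14.3%, 20.2% and 8% of all genes there. The 4 pairs past 2-fold lower, MUP1 in A2, MET22 in A9, MET31 in A10 and MMP1 in A14, all lay on other chromosomes. Relative to the chromosome, 2 pairs stayed past 2-fold higher and 4 were past 2-fold lower, with MET22 in A10 in place of MUP1 in A2. Pairs of the same gene or the same strain share their source and are not replicates, so these counts are a description.

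**Figure D3:**
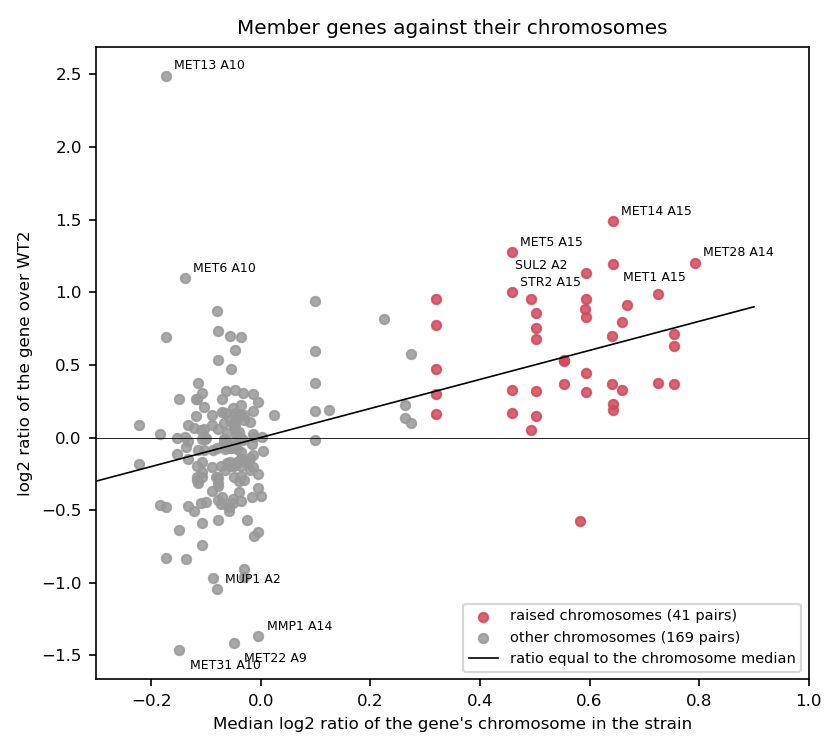
Log2 ratio over WT2 of each member in each strain (vertical axis) against the median log2 ratio of its chromosome on the same array (horizontal axis), for 210 pairs, with the 41 pairs on raised chromosomes coloured and the line of equality drawn. Points on raised chromosomes scatter on both sides of the line, 20 above and 21 below, and MET13 in A10 at 2.49 is the highest point.

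Whether the strains as a group differed from wild type was tested in limma over all 6126 genes with Benjamini-Hochberg adjustment. Strains minus WT1, with the strains as 7 replicates and the single WT1 array assumed to vary like them, gave 0 of 30 members called at an adjusted p under 0.05, where 0% of all genes were called higher and 0% lower. At an unadjusted p under 0.05 the count was also 0 of 30 members, and 32 of the 6126 genes. The differences lay between -0.36 for SAM2 and 0.55 for SAM1, 19 positive and 11 negative, with a median of 0.03, beside 0.03 over all genes tested. The smallest p of a member in limma was 0.19, for MET4, with a difference of -0.35 (SE 0.243, adjusted p = 0.999).

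The intervals of these differences were wide. SAM1 stood at 0.55 (SE 0.494), MET13 at 0.49 with a 95% interval of -1.34 to 2.33, MET8 at 0.44 (SE 0.654), and SAM2 at -0.36 (SE 0.362). At the narrow end, MET2 stood at 0.00 with an interval of -0.46 to 0.46. Leaving out A10 alone put MET13 at 0.19. Leaving out A9 and A10 put MET13 at 0.24 and MET8 at 0.69, put MET22 at -0.08, against -0.26 with all 7 strains, and again called no member. Within the slide row that holds WT1, MET13 stood at -0.04.

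**Figure D4:**
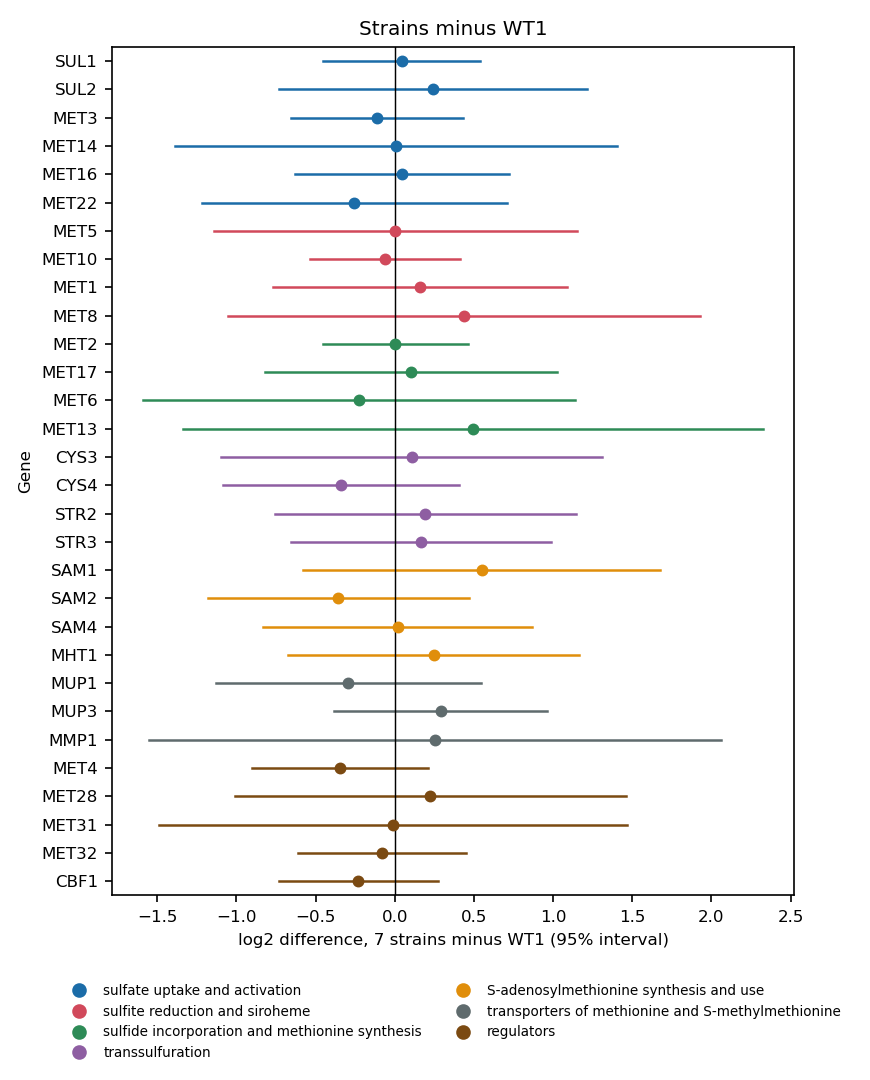
Log2 difference of strains minus WT1 (horizontal axis) for each of the 30 members with its 95% interval from limma (7 strains and 1 WT1 array), ordered by role. Every interval crosses 0, and the differences lie between -0.36 for SAM2 and 0.55 for SAM1.

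Against WT2, which every array shares and which leaves in any dye effect, limma called 0 of 30 members, while 2.33% of all genes were called higher and 3.07% lower. The p-values of this fit rest on the spread between strains only and leave out the spread of wild type. A shift of the WT2 RNA itself would move all 7 strains together. The member nearest the threshold was CYS4, at -0.47 over the 7 strains (adjusted p = 0.0535, lower in 7 of 7 strains), with WT1 itself at -0.13. MUP1 followed with an adjusted p of 0.0584 in limma, lower in 7 of 7 strains, and MET22 with 0.0644, lower in 6 of 7 strains. MET22 stood at -0.55 over the 7 strains and at -0.41 without A9. Unadjusted p values under 0.05 were found for 8 of 30 members, with SUL2, MET16, MET5 and MET1 higher and CYS4, MUP1, MET22 and SAM2 lower, beside 1644 of all 6126 genes. MET13 was above 0 in 7 of 7 strains, with an adjusted p of 0.189 in limma. Of the 6126 genes tested, 420 were above 0 and 479 below 0 in all 7 strains, beside 1 and 2 of the 30 members.

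Relative to the chromosome, limma against WT2 also called 0 of 30 members (smallest adjusted p = 0.0552), where 5.21% of all genes were called higher and 6.12% lower. Members differed more between strains than the median gene did. The SD over the 7 strains had a median of 0.418 over the members and 0.320 over all genes tested, and of 0.321 and 0.230 relative to the chromosome. Without A9 and A10 the medians were 0.364 over the members and 0.233 over all genes tested. The widest member was MET13, with an SD of 0.881, followed by MMP1 at 0.869. The SD of MET13 rested on A10 and was 0.368 without it, where MMP1 was the widest at 0.884.

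A further 37 genes of neighbouring pathways were read from a list chosen with earlier results known. limma called none of them in strains minus WT1. Against WT2 it called 2 of the 37 higher and none lower, where 2.33% of all genes were called higher and 3.07% lower. ECM38, the gamma-glutamyltransferase gene of glutathione breakdown, was at 0.89 in A2 and 0.53 in A3, 0.55 in A9, 1.40 in A10, 0.22 in A13, 0.44 in A14 and 0.39 in A15, against -0.03 in WT1. It rose by 0.63 against WT2 (adjusted p = 0.0424, higher in 7 of 7 strains) and remained called relative to its chromosome. SEO1, a member of the allantoate permease family of transporters, rose by 0.52 (adjusted p = 0.035, higher in 7 of 7 strains), with WT1 at -0.04. Relative to chromosome I, which was raised in A3 and A13, SEO1 was no longer called, at 0.36 (adjusted p = 0.108, above 0 in 6 of 7 strains). Both genes were above WT1 in 7 of 7 strains, as were 6.85% of all genes with a value on every array. Of the 6126 genes tested, 420 were above 0 in all 7 strains. With A2, A3 or A9 left out in turn, limma called 0 genes against WT2 on the whole array.

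Relative to the chromosome, 5 of the 37 genes were called lower against WT2, where 6.12% of all genes were. The 5 were ADO1, adenosine kinase, and MRI1, MDE1, SPE2 and SPE3 of methionine salvage and polyamine synthesis. Their means lay between -0.24 for ADO1 and -0.37 for MRI1. Relative to the chromosome, WT1 was also below WT2 for these 5 genes, between -0.16 for SPE3 and -0.26 for SPE2. Means of the strains beside WT1 on this scale were -0.37 and -0.19 for MRI1 and -0.35 and -0.16 for SPE3. They were -0.34 and -0.26 for SPE2, -0.32 and -0.25 for MDE1, and -0.24 and -0.26 for ADO1. Without the chromosome median taken off, the differences of strains minus WT1 lay between -0.06 for MDE1 and 0.02 for ADO1. Outside these calls, SHM1, the mitochondrial serine hydroxymethyltransferase gene on chromosome II, was at 1.30 in A2 and 1.15 in A9, against 0.32 in WT1. Chromosome II was raised in both strains, and SHM1 was at 0.64 in A2 and 0.51 in A9 relative to it. DUG2, a gene of glutathione breakdown also on chromosome II, was at 1.06 in A2, against 0.21 in WT1, and at 0.40 in A2 relative to the chromosome. HOM3, the aspartate kinase gene at the head of homoserine synthesis, was at -1.0 in A9, against 0.20 in WT1. In A14 the sulfite exporter gene SSU1 was at 1.02 and the desulfhydrase gene IRC7 at -1.15, against 0.06 and -0.22 in WT1. SSU1 lies on chromosome XVI, raised in A14, and was at 0.27 relative to it, while chromosome VI of IRC7 was raised in no strain.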

How the data were processed

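Signals were quantified by the authors with Agilent Feature Extraction 10.5.1.1, according to the file headers. The deposited spot and background intensity medians carry no normalization, per the file headers. Also deposited were processed signals, in which the scanner software had subtracted background and normalized dyes, per the file headers, a log10 ratio, and a value table of log2 ratios of Cy5 over Cy3.

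From the medians, ratios were computed in R 4.3.3 with limma 3.58.1, using normexp background correction (offset 50) and loess within arrays. The 536 control spots and flagged spots had weight 0 in loess, flagged spots were left out, and the 2 spots of a gene were averaged. A gene was tested when at least 2 arrays had it well above background in Cy5 or Cy3. All arrays lay on 1 slide with 1 scan time, and no dyes were swapped. Per-array counts have no test. Where cultures were not separate, p-values cover a spread that may be technical. Symbols came from a table of assembly R64, and 500 genes kept the name in the file. The number of arrays limits the precision. The members and lists were chosen with earlier results of these data known. All 30 members may be named, and of the other lists those past 2-fold or called. The limma step was tested on simulated data, and the alternatives are in the closing section. SDs without A9 or A10 were added after seeing the data.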

Additional observations from a re-analysis of the deposited data

Results flagged for a closer look

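Among the 7 strains, 1 strain lay far from the other 6 for 6 members, judged by the gap to its nearest neighbour over the whole range of the 7 values, with a critical value of 0.568. The share was 0.795 for MET3, where A15 was at 0.33 and the next strain at -0.15. It was 0.665 for MET13, where A10 was at 2.49 and the next at 0.87, and 0.636 for MET31, where A10 was at -1.47 and the next at -0.08. For STR2 it was 0.655, with A15 at 1.0 and the next strain at 0.15. For MUP3 it was 0.668, with A13 at 0.82 and the next at 0.26, and for MET28 it was 0.595, with A14 at 1.2 and the next at 0.20. In all, 31 sets of values were tested, and chance flags about 1 in 20 when the 7 values share 1 distribution. The same rule was not applied to all genes, so whether 6 flags are many for these arrays was not tested. MET3 and STR2 lie on chromosome X, raised in A15 alone, and MET28 on chromosome IX, raised in A14 alone, whereas MET13 and MET31 stood apart on chromosomes that were not raised in A10. The median of chromosome VIII, which holds MUP3, was 0.23 in A13, under the 0.3 used for a raised chromosome. Relative to the chromosome, an alternative added after seeing the data, the share stayed above the critical value for MET13 (0.676) and MET31 (0.844). It was 0.421 for MUP3, 0.418 for STR2 and 0.176 for MET28, and A15 no longer held the highest value of MET3. The part of the chromosome in these values was not tested.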

How the results depend on the processing

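No member was called by either limma fit in any of the 16 alternatives, the lowest adjusted p against WT2 being 0.0509. Counts of members past 2-fold rose with processed signals and with the deposited table to 5 in A2, 3 in A3, 4 in A9 and 6 in A10. SUL1 was among those past 2-fold in A2, A3 and A9. With both, MET8 at 1.40 and STR3 at 1.25 also passed 2-fold in A15, and MET16 at 1.11 in A14. Median centring gave 2 in A3, 5 in A10 and 1 in A13, and no background correction gave 1 in A3. In A15, MET17 at 1.03 also passed with median centring, and MET8 at 1.05 without background correction. Relative to the chromosome the counts were 0 in A2, 1 in A14 and 0 in A15, and the median in A3 was 0.011. Some members changed sign in strains minus WT1, with MET13 (0.49), MMP1 (0.26) and SUL2 (0.24) the widest of them, each within the slide row of WT1. With processed signals MET2 was at -0.10 and MET5 at -0.024, and with the deposited table at -0.105 and -0.024. With median centring MET2 was at -0.17, MET10 at 0.014, MET16 at -0.076, MET31 at 0.048, STR3 at -0.0012 and SUL1 at -0.36. Without background correction MET5 was at -4.76e-04. Relative to the chromosome MET1 was at -0.025, MET10 at 0.022, MET14 at -0.17, MET16 at -0.077, MET17 at -0.10, MET32 at 0.017, CYS3 at -0.089, SAM4 at -0.11 and SUL1 at -0.33. Without A9 and A10, MET16 was at -0.012 and MET31 at 0.17. Within the slide row of WT1, MET3 was at 0.013, MET13 at -0.045, MET31 at 0.20, MET32 at 0.033, SUL1 at -0.058, SUL2 at -0.016 and MMP1 at -0.10. Leaving out 1 strain at a time put MET5 between -0.14 and 0.13, CYS3 between -0.028 and 0.19, SAM4 between -0.061 and 0.11, MET14 between -0.20 and 0.12, MET31 between -0.13 and 0.23, MET2 between -0.029 and 0.035, MET16 between -0.016 and 0.12 and MET17 between -0.014 and 0.18. The cause of these shifts was not tested. Over all genes, the calls against WT2 numbered 331, but 0 without A2, A3 or A9 in turn, 3 without A13, 1145 with median centring, 554 with processed signals and 694 relative to the chromosome. No paired analysis was possible because the labels give no replicate numbers that strains and WT1 share.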

Other observations

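Genes often deleted as selectable markers in laboratory yeast were read on the same arrays. TRP1 was not well above background in either channel on any array. HIS3 was well above background in Cy3 on A2 alone. LEU2 was at -1.07 in A9 and between -0.53 and 0.11 in the other strains, against 0.32 in WT1. ADE2, on chromosome XV, was at 0.55 in A10, where that chromosome was raised, and between -0.90 and -0.20 in the other strains, against 0.16 in WT1. LYS2, on chromosome II, was at 0.82 in A2, 0.71 in A3 and 0.96 in A15, which had raised chromosome II, but at 0.18 in A9, which had it raised too, against 0.19 in WT1.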
